A study of Mus musculus with 17 samples.

Results

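The genes described here encode the classical and nonclassical MHC class I molecules and the transporter associated with antigen processing (TAP). They were the 10 rows of the count table whose gene name was *H2-K1*, *H2-D1*, *H2-Q4*, *H2-Q6*, *H2-Q7*, *H2-T23*, *H2-M3*, *B2m*, *Tap1* or *Tap2*, of 56748 genes in all, and all 10 were among the 16195 genes that passed the filter on low counts. Poly(A)-selected RNA from mouse heart tissue was sequenced in 17 libraries, 8 from control mice (Ctrl) and 9 from hMut mice, with animals of 12 to 16 months in both groups and no treatment. hMut mice were *Polg* iMut/iMut; +/Ckmm-cre, so that Cre expressed from the promoter of muscle creatine kinase, which is active in heart and skeletal muscle, switches on a proofreading-deficient mtDNA polymerase. The labels call the comparison group Ctrl, and which *Polg* or cre alleles these mice carried is not given in the sources used here. The comparison asks how gene expression of aged hearts differs between these genotypes. Hearts are named by group and by the number in their label.

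MHC class I molecules display short peptides from inside the cell at its surface, where CD8 T cells and natural killer (NK) cells read them. A heavy chain pairs with beta-2 microglobulin, and the peptide is carried into the endoplasmic reticulum by TAP, a heterodimer of TAP1 and TAP2. Interferons raise most of these genes through IRF factors, NF-kappaB and the transactivator NLRC5. Resting cardiomyocytes are known for low surface class I, while endothelial and immune cells of the heart carry more.

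*H2-K1* and *H2-D1* encode the classical heavy chains, which present peptides to CD8 T cells. *H2-Q4*, *H2-Q6* and *H2-Q7* belong to the Qa cluster of nonclassical heavy chains. *H2-T23* encodes Qa-1, which shows a leader peptide of other class I chains to the CD94/NKG2 receptors of NK cells, and *H2-M3* encodes a chain that binds N-formylated peptides, a class that includes peptides of mtDNA-encoded proteins. Of these genes 9 lie in the MHC on chromosome 17, and *B2m* lies on chromosome 2. The start of the exon for the second extracellular domain (alpha 2, coding exon 3) is shown for the 7 heavy chains, since the likeness of these copies sets how far reads can be assigned to one of them. The windows are the 60 bases from the 5′ end of that exon in GRCm39, on the strand of each gene, and capitals mark the bases that differ from *H2-K1*.
H2-K1: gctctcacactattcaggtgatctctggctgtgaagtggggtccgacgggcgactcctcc
H2-D1: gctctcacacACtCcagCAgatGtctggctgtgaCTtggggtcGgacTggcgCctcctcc
H2-Q4: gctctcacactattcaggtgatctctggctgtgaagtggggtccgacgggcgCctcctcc
H2-Q6: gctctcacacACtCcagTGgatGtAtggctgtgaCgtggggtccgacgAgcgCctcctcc
H2-Q7: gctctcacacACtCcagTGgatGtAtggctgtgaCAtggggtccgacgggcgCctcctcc
H2-T23: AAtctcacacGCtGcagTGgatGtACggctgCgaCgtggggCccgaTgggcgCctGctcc
H2-M3: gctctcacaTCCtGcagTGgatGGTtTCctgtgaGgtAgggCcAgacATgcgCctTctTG
These windows lie at chr17:34218461-34218520, minus strand for *H2-K1*, chr17:35482815-35482874, plus strand for *H2-D1*, chr17:35599337-35599396, plus strand for *H2-Q4*, chr17:35644547-35644606, plus strand for *H2-Q6*, chr17:35658885-35658944, plus strand for *H2-Q7*, chr17:36342746-36342805, minus strand for *H2-T23* and chr17:37581889-37581948, plus strand for *H2-M3*. In this window *H2-Q4* differed from *H2-K1* at 1 base, *H2-D1* at 11, *H2-Q6* and *H2-Q7* at 10 each, *H2-T23* at 16 and *H2-M3* at 21.

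Over the whole exon of 276 bases, *H2-Q6* and *H2-Q7* were the most alike of the 7, with 94.9% identity, *H2-K1* and *H2-Q4* shared 91.3%, and *H2-K1* and *H2-D1* 88.0%. *H2-M3* stood furthest away, between 65.6% and 68.5% from the other 6. The next exon, for the membrane-proximal alpha 3 domain, was closer between the classical genes, with 96.0% identity of *H2-K1* and *H2-D1*. Words of 50 bases from the annotated transcripts of each gene were looked up in the transcripts of all genes at other loci, on both strands. For *H2-K1* 11.3% of the words also occurred elsewhere, for *H2-D1* 12.7%, for *H2-T23* 13.9%, for *H2-Q7* 25.1%, for *H2-Q4* 27.0% and for *H2-Q6* 30.8%. For *H2-M3* the share was 0.342%, for *Tap1* 0.374% and for *Tap2* 0.501%, and for *B2m* it was 0. With words of 150 bases the largest share was 5.05%, for *H2-Q4*. The read length and the treatment of reads with several places are not given in the sources used here, so values of the Qa genes in particular are uncertain, while *B2m*, *H2-M3* and the TAP genes have almost no such copy. Exons of other genes lie opposite 8 of the 10, all but *H2-M3* and *B2m*, in the GENCODE M39 annotation, such as 743 bases of *Psmb9* opposite *Tap1*. Whether the counting used the strand is also not given, so reads of such partners cannot be told apart from those of the gene.

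Total counts were between 32915159 and 46486964 per library. In 8 of 9 hMut hearts *Polg* itself was above every Ctrl heart (47.0 to 65.1 CPM in hMut, 27.1 to 47.2 in Ctrl; log2 fold change 0.74, SE 0.10, adjusted p = 0.000448, edgeR), a gene-level count that does not separate the mutant from the wild-type transcript. The heart markers were present: the 7 cardiomyocyte markers summed to 37647 to 46015 CPM in Ctrl and 28551 to 44658 in hMut. hMut replicates 6 and 9 stood apart from the rest, with the lowest cardiomyocyte sums (30840 and 28551 CPM) and the highest atrial marker sums (687 and 425 CPM, against 38.3 to 166 in Ctrl), so results are given with and without them. Nearly all of these atrial sums was *Nppa*, a natriuretic peptide gene named after its values were seen (685 and 423 CPM), and the other atrial markers in both hearts were within the Ctrl range. CPM stands for counts scaled to the TMM-normalized size of the library, and the floor of 3 counts corresponded to between 0.0676 and 0.0951 CPM.

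Levels of different genes were compared per length, as the mean CPM per kb of gene over the 8 Ctrl hearts. *B2m* was highest at 304 ± 50.5 CPM per kb (SD, n = 8), at percentile 99.2 of the tested genes. *H2-D1* followed at 96.6 ± 7.54 and *H2-K1* at 69.7 ± 8.79 CPM per kb, and the ranges of these 3 genes over hearts did not overlap. *H2-Q4* (15.1 ± 2.36 CPM per kb) and *H2-T23* (11.6 ± 1.04) were next, with overlapping ranges. *Tap2* (6.50 ± 0.502 CPM per kb) was above *H2-M3* (4.06 ± 0.487) without overlap, while *H2-M3* overlapped *Tap1* (2.75 ± 0.568). *H2-Q6* (0.911 ± 0.344 CPM per kb) and *H2-Q7* (0.496 ± 0.161) were lowest and overlapped each other. The classical heavy chains and their light chain were thus the abundant transcripts of the group, and the order was the same with exon lengths from GENCODE, although the level of *B2m* was then 124 CPM per kb, because its annotated exons are longer there.

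**Figure D1:**
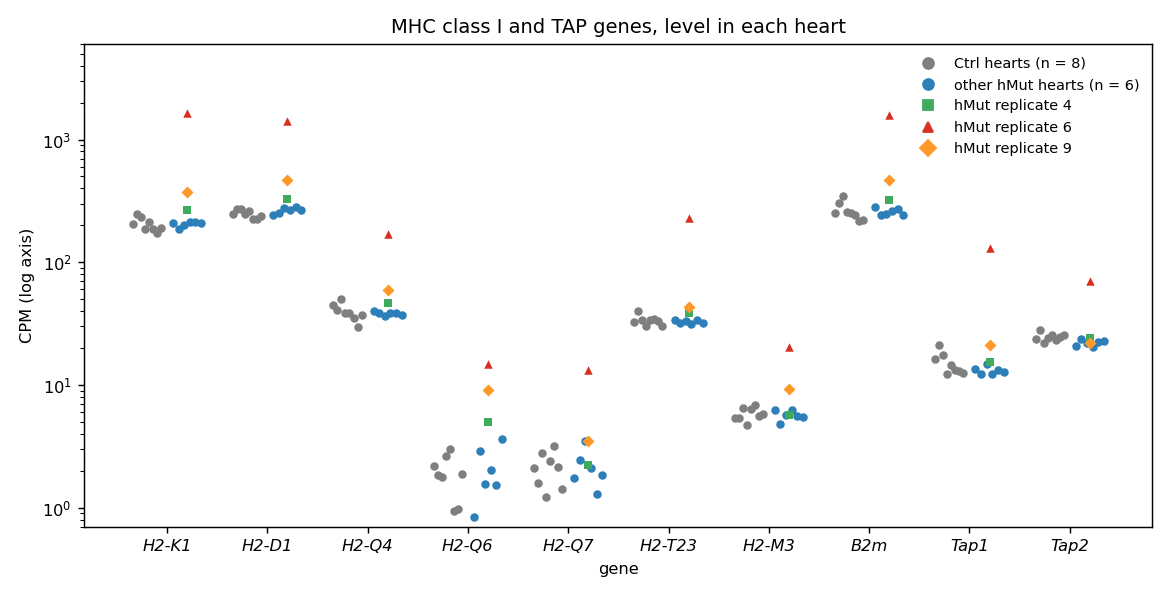
Level of the 10 genes in each heart, in CPM on a log axis, with Ctrl hearts in grey (left of each gene) and hMut hearts in colour (right). hMut replicate 6 (red triangles) lies above every other heart for all 10 genes, hMut replicate 9 (orange diamonds) above every Ctrl heart for 8, and the other hMut hearts lie mostly among the Ctrl hearts.

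Of the 10 genes, 0 passed the adjusted threshold of 0.05 between hMut and Ctrl in edgeR's quasi-likelihood test over all genes, where 4.62% of the tested genes passed, and 4 had an unadjusted p under 0.05. DESeq2 and limma-voom also called 0 of the 10, where they called 10.2% and 12.8% of the genes they tested. Fitted log2 fold changes were all above 0, with a median of 0.75 and a range of 0.17 to 1.29, where the median over all tested genes was 0.00. The highest level of each of the 10 genes was in the same heart. In hMut replicate 6 all 10 genes were above every Ctrl heart, where 31.1% of all tested genes were. In hMut replicate 9 this held for 8 of 10, all but *Tap1* and *Tap2* (27.9% of all tested genes), and in hMut replicate 4 for 3 of 10, *H2-K1*, *H2-D1* and *H2-Q6* (14.7% of all tested genes). In each of the other 6 hMut hearts between 0 and 2 genes were above every Ctrl heart (10.9% to 17.7% of all tested genes).

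*H2-K1* (ENSMUSG00000061232, GRCm39 chromosome 17, 34214991 to 34219321) was at 172 to 247 CPM in Ctrl (median 198) and at 188 to 1638 CPM in hMut (median 213). The highest value was that of hMut replicate 6, 8.26 times the Ctrl median, followed by hMut replicate 9 with 375 CPM and hMut replicate 4 with 266, and the remaining 6 hearts lay within the Ctrl range. The log2 fold change was 0.93 (SE 0.40, adjusted p = 0.156, edgeR). *H2-D1* (ENSMUSG00000073411, chromosome 17, 35481706 to 35486475) was at 224 to 273 CPM in Ctrl (median 247) and at 242 to 1428 CPM in hMut (median 274). It was the gene of the group most often above the Ctrl hearts, in 5 of 9 hMut hearts, and its fold in hMut replicate 6 was 5.78. Its log2 fold change was 0.76 (SE 0.31, adjusted p = 0.142, edgeR).

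The ratio of *H2-K1* to *H2-D1* CPM ranged from 0.760 to 0.904 over Ctrl and from 0.740 to 0.864 over 8 hMut hearts, hMut replicate 9 included at 0.796. In hMut replicate 6 it was 1.15, so that *H2-K1*, in CPM the lower of the classical heavy chains in every other heart, was there the higher one. Per kb of gene they were nearly level in that heart, at 557 CPM per kb for *H2-K1* and 554 for *H2-D1*.

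Among the Qa genes, *H2-Q4* (ENSMUSG00000035929, chromosome 17, 35598593 to 35604266) was at 29.6 to 50.01 CPM in Ctrl (median 38.4) and 36.7 to 170 CPM in hMut (median 39.0). hMut replicates 6 and 9 (59.1 CPM) were above the Ctrl hearts and the other 7 within their range, and the log2 fold change was 0.52 (SE 0.28, adjusted p = 0.237, edgeR). *H2-Q6* (ENSMUSG00000073409, chromosome 17, 35643826 to 35649031) was at 0.937 to 2.99 CPM in Ctrl (median 1.86) and 0.839 to 14.97 CPM in hMut (median 2.92), from 31 to 632 counts. It had the largest fitted log2 fold change of the 10 genes, 1.29 (SE 0.48, adjusted p = 0.114, edgeR), and 4 of 9 hMut hearts were above every Ctrl heart (replicates 4, 6, 8 and 9) and 1 below. *H2-Q7* (ENSMUSG00000060550, chromosome 17, 35658131 to 35662749), which lies next to *H2-Q6* and resembles it most, was at 1.23 to 3.21 CPM in Ctrl (median 2.13) and 1.31 to 13.2 CPM in hMut (median 2.24). Its log2 fold change was 0.75 (SE 0.40, adjusted p = 0.234, edgeR).

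In hMut replicate 9 the neighbours differed: *H2-Q6* was 4.88 times its Ctrl median and *H2-Q7* 1.63 times. The share of *H2-Q6* in the sum of the pair moved widely between hearts, from 22.6% to 68.0% in Ctrl and from 30.6% to 72.3% in hMut. Their sum was 4.01 ± 0.758 CPM in Ctrl (SD, n = 8), with 28.2 CPM in hMut replicate 6 and 12.5 in hMut replicate 9. A division of reads between these copies was not tested as a source of the moving share.

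*H2-T23* (ENSMUSG00000067212, chromosome 17, 36340665 to 36343747), the Qa-1 gene, was at 30.3 to 39.8 CPM in Ctrl (median 33.6) and 31.5 to 228 CPM in hMut (median 33.6). In the 7 hMut hearts other than replicates 6 and 9 it was at 33.6 ± 2.37 CPM (SD) against 33.6 ± 3.01 in Ctrl (SD, n = 8). The log2 fold change over all hearts was 0.75 (SE 0.37, adjusted p = 0.211, edgeR). *H2-M3* (ENSMUSG00000016206, chromosome 17, 37581111 to 37585375) was at 4.74 to 6.90 CPM in Ctrl (median 5.71) and 4.84 to 20.4 CPM in hMut (median 5.75). Its fold in hMut replicate 6, 3.57, was the smallest of the heavy chains, and its log2 fold change over all hearts was 0.41 (SE 0.24, adjusted p = 0.290, edgeR).

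*B2m* (ENSMUSG00000060802, chromosome 2, 121978167 to 121983564), the light chain of all these molecules, was at 216 to 345 CPM in Ctrl (median 252) and 242 to 1584 CPM in hMut (median 272). hMut replicate 6 was 6.29 times and hMut replicate 9 (471 CPM) 1.87 times the Ctrl median, and the other 7 hMut hearts lay within the Ctrl range. The log2 fold change was 0.74 (SE 0.35, adjusted p = 0.186, edgeR). In proportion to the classical heavy chains *B2m* lay within the Ctrl range in every hMut heart: its CPM over the sum of *H2-K1* and *H2-D1* was 0.514 to 0.678 in Ctrl and 0.514 to 0.622 in hMut, with 0.517 in hMut replicate 6 and 0.557 in hMut replicate 9.

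The TAP genes, which are neighbours on chromosome 17, parted from each other. *Tap1* (ENSMUSG00000037321, chromosome 17, 34406527 to 34416199) was at 12.3 to 21.2 CPM in Ctrl (median 13.9) and 12.2 to 132 CPM in hMut (median 13.5). In hMut replicate 6 its fold of 9.45 was the largest of the 10 genes, while hMut replicate 9 with 21.2 CPM did not exceed the highest Ctrl heart, replicate 2. *Tap2* (ENSMUSG00000024339, chromosome 17, 34422501 to 34435295) was at 21.9 to 28.2 CPM in Ctrl (median 24.3) and 20.6 to 70.6 CPM in hMut (median 22.3), and its fold of 2.91 in hMut replicate 6 was the smallest of the 10. In hMut replicate 9 *Tap2* was at 0.910 times the Ctrl median, and hMut replicates 1 and 5 lay below the lowest Ctrl heart. The log2 fold changes were 0.87 for *Tap1* (SE 0.46, adjusted p = 0.236, edgeR) and 0.17 for *Tap2* (SE 0.21, adjusted p = 0.621, edgeR).

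*Tap1* over *Tap2* in CPM was 0.492 to 0.797 in Ctrl, 0.520 to 0.667 in 7 hMut hearts, 0.960 in hMut replicate 9 and 1.86 in hMut replicate 6. *Tap1* was thus the lower of the pair in every heart but replicate 6. *Psmb9*, whose exons lie opposite those of *Tap1*, was at 65.5 CPM in hMut replicate 6 and at 7.72 to 14.2 CPM in Ctrl, and its part in the *Tap1* counts was not tested.

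**Figure D2:**
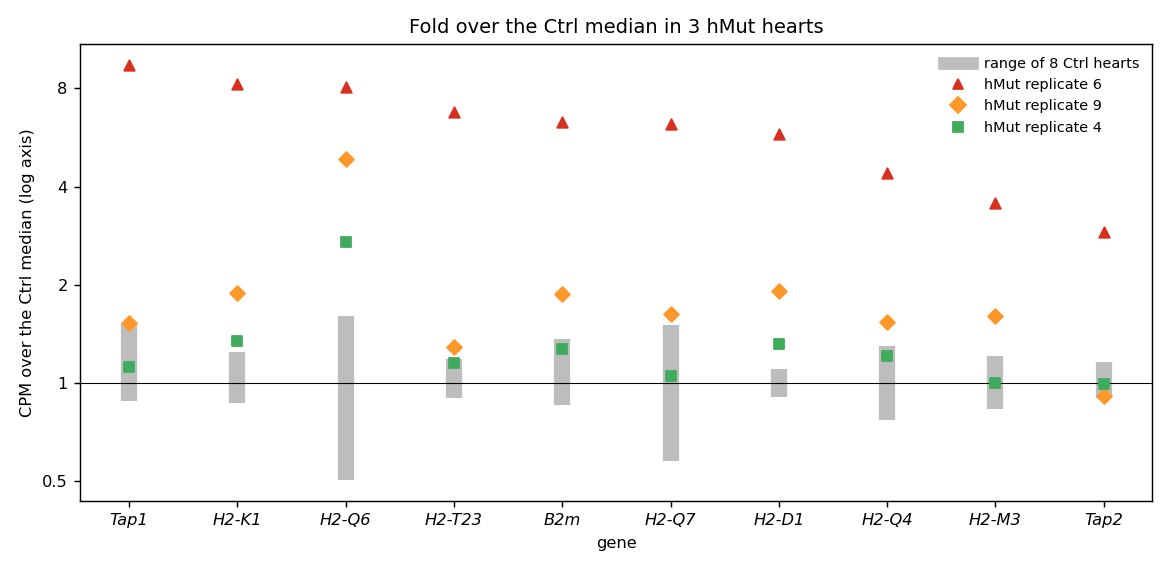
CPM of each gene over its Ctrl median, on a log axis, in hMut replicates 6, 9 and 4, with the range of the 8 Ctrl hearts as grey bars and genes ordered by their value in replicate 6. The folds in replicate 6 run from 9.45 for *Tap1* to 2.91 for *Tap2*, and *H2-Q6* is the gene that stands out in replicates 9 and 4.

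**Figure D3:**
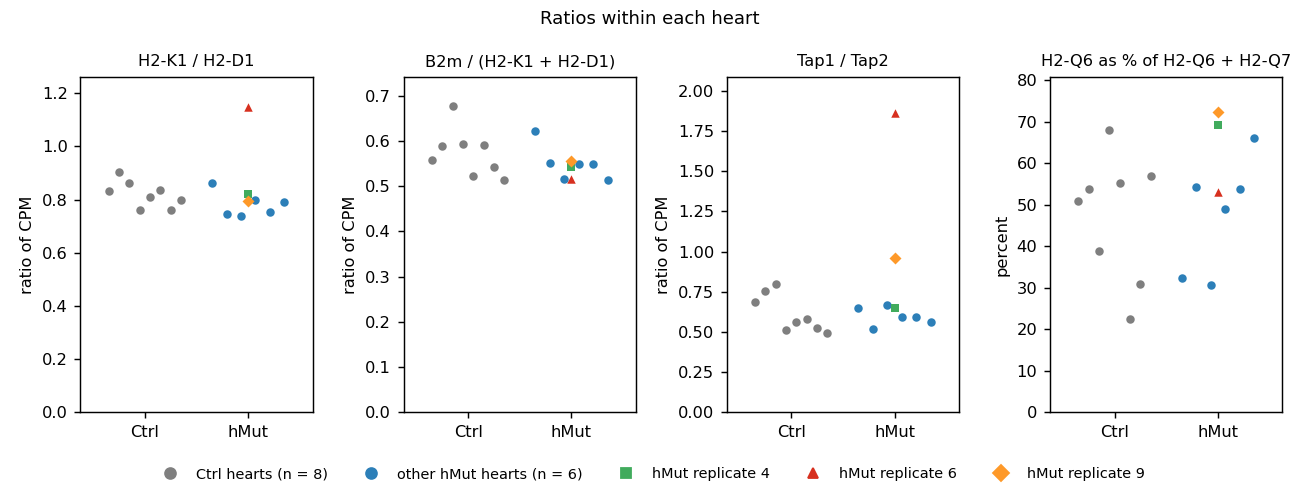
Ratios of CPM within each heart, Ctrl in grey and hMut in colour, with the share of *H2-Q6* in the *H2-Q6* and *H2-Q7* sum as a percentage in the last panel. Replicate 6 lies apart for *H2-K1* over *H2-D1* (1.15) and *Tap1* over *Tap2* (1.86), and within the Ctrl range for *B2m* over the classical heavy chains (0.517).

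How far the group comparison rested on hMut replicate 6 was seen by leaving it out. The median log2 fold change of the 10 genes then went from 0.75 to 0.12, and again 0 of 10 passed, where 3.09% of the tested genes passed. *H2-K1* went to 0.20, *H2-D1* to 0.26, *B2m* to 0.16 and *H2-T23* to 0.05, while *Tap1* (-0.06) and *Tap2* (-0.14) turned below 0. *H2-Q6* kept the largest value, 0.82. Without hMut replicates 6 and 9 the median was 0.02, and *H2-Q6* (0.40) and *H2-D1* (0.13) were the highest. DESeq2 at its defaults replaced the count of hMut replicate 6 as an outlier in 6 of the 10 genes (*H2-K1*, *H2-D1*, *H2-Q4*, *H2-T23*, *B2m* and *Tap1*). This gave a log2 fold change of 0.18 for *H2-K1* and of -0.06 for *Tap1*, and with the replacement switched off 0.93 and 0.86. For *H2-Q6*, *H2-Q7*, *H2-M3* and *Tap2* no count was replaced.

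**Figure D4:**
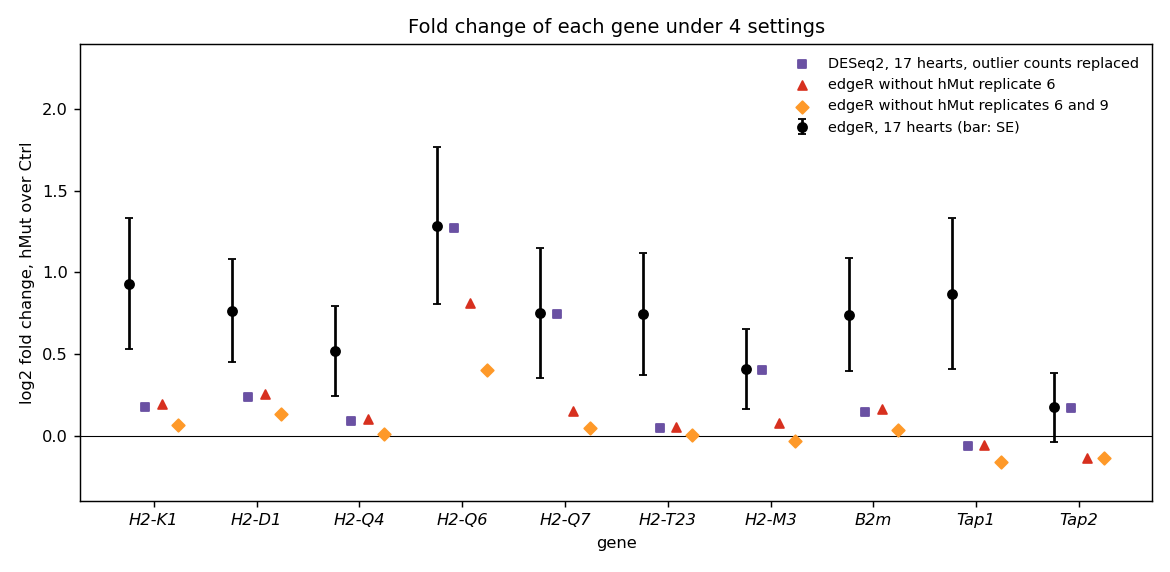
Log2 fold change of hMut over Ctrl for each gene in edgeR over 17 hearts (black, with SE), in DESeq2 over the same hearts, and in edgeR without hMut replicate 6 or without replicates 6 and 9. Leaving out replicate 6 or replacing its counts moves *H2-K1* from 0.93 to about 0.2 and *Tap1* from 0.87 to just below 0.

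The 10 genes moved together across hearts mainly through the same heart. Over 17 hearts the median Pearson's r of log2 CPM over the 45 pairs of genes was 0.92, over the 16 hearts without hMut replicate 6 it was 0.59, and over the 15 hearts without replicates 6 and 9 it was 0.21. *H2-K1*, *H2-D1* and *B2m* stayed close in all 3 sets, with r of *H2-K1* and *B2m* at 0.99, 0.95 and 0.87. All genes of a heart share its library and scaling, so these are descriptions without a test.

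Among the genes whose log2 CPM followed the mean of the 10 most closely over 17 hearts were *Gbp3* (r = 0.98), an interferon-inducible GTPase, *Nlrc5* (0.98), the transactivator of class I genes, *Ly9* (0.98), a SLAM-family receptor of leukocytes, and *Psmb8* (0.97), a subunit of the immunoproteasome. In all, 236 of 16185 other tested genes (1.46%) had an r above 0.9. Over the 16 hearts without hMut replicate 6, 1 of 16185 genes (0.00618%) had an r above 0.9, and the closest were *Ly9* (0.92), *Slc20a1* (0.90), a phosphate transporter, *Creld2* (0.89), an endoplasmic reticulum protein, *Cfp* (0.88), which encodes properdin, and *Tcirg1* (0.88), a proton pump subunit. *Ly9* was the gene shared by these sets of 5. *Ly9* was at 0.836 to 1.87 CPM in Ctrl, 2.73 in hMut replicate 9 and 12.2 in hMut replicate 6.

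Among 15 further class I heavy chain genes and class I-like genes, 10 were tested, 0 were higher and 1 was lower in hMut. This was *Cd1d1*, which presents lipids to NKT cells and also pairs with beta-2 microglobulin. *Cd1d1* was at 3.62 to 5.42 CPM in Ctrl (median 4.09) and 2.53 to 3.85 CPM in hMut (median 3.07). In 8 of 9 hMut hearts it was below every Ctrl heart, and hMut replicates 6 (2.63 CPM) and 9 (2.91) were among them. Its log2 fold change was -0.43 (SE 0.10, adjusted p = 0.0169, edgeR). *Cd1d1* passed with DESeq2, limma-voom and when any 1 heart was left out, and missed the threshold with hMut replicates 4, 6 and 9 all left out (adjusted p = 0.0826, edgeR). The median log2 fold change of the 10 was -0.01, and 4.62% of all tested genes passed in either direction. Above every Ctrl heart were 5 of the 10 in hMut replicate 6 (31.1% of all tested genes) and 3 in hMut replicate 9 (27.9%). *H2-T22*, chosen after its values were seen, was at 23.4 to 33.3 CPM in Ctrl. It was at 175 CPM in hMut replicate 6, 36.4 in hMut replicate 9 and 23.2 to 29.8 in the other hMut hearts. *H2-M2*, a nonclassical gene chosen after its values were seen, was at 0.216 to 0.498 CPM in Ctrl, at 14 CPM (591 counts) in hMut replicate 6 and below every Ctrl heart in 6 hMut hearts (log2 fold change 2.28, SE 1.01, adjusted p = 0.167, edgeR). In those 6 hearts it had 2 to 7 counts, against 8 to 20 in Ctrl.

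Of 12 genes of peptide supply and loading 0 passed, where 4.62% of all tested genes passed. The median log2 fold change of the 12 was 0.13, and 10 of them were above every Ctrl heart in hMut replicate 6 (31.1% of all tested genes). The smallest adjusted p were those of *Canx*, the chaperone calnexin (log2 fold change -0.13, SE 0.04, adjusted p = 0.0882, edgeR), *Psmb10* (0.64, SE 0.26, adjusted p = 0.136) and *Psmb8* (0.76, SE 0.39, adjusted p = 0.219), both subunits of the immunoproteasome. *Canx* was below every Ctrl heart in 6 of 9 hMut hearts (321 to 358 CPM in Ctrl, 293 to 351 in hMut). *Psmb8* was at 79.9 CPM in hMut replicate 6, 16.1 in hMut replicate 9 and 10.05 to 15.8 in Ctrl. Of 14 regulators 12 were tested and 0 passed (4.62% of all tested genes), and 9 were above every Ctrl heart in hMut replicate 6 (31.1% of all tested genes). Among the smallest adjusted p were those of *Rela*, a subunit of NF-kappaB (log2 fold change 0.14, SE 0.05, adjusted p = 0.131, edgeR) and *Nlrc5* (0.92, SE 0.44, adjusted p = 0.197). *Nlrc5* was at 62.6 CPM in hMut replicate 6, 14.9 in hMut replicate 9 and 5.53 to 10.1 in Ctrl. *Ifng*, chosen after its values were seen, was not tested: it had 54 counts in hMut replicate 6 and at most 2 in any other heart.

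Of 9 receptors that bind class I, 3 were tested and 0 passed, where 4.62% of all tested genes passed. The 3 tested were *Klrk1* (NKG2D, log2 fold change 1.70, SE 0.69, adjusted p = 0.139, edgeR), *Cd8a* (2.59, SE 1.06, adjusted p = 0.141) and *Pirb* (0.42, SE 0.29, adjusted p = 0.343). *Cd8a*, a chain of the coreceptor that binds class I on T cells, was at 0.0852 to 2.25 CPM in Ctrl, 1.49 in hMut replicate 9 and 25.9 in hMut replicate 6. The CD94 gene *Klrd1*, chosen after its values were seen, had 165 counts in hMut replicate 6 and at most 15 in any Ctrl heart.

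**Figure D5:**
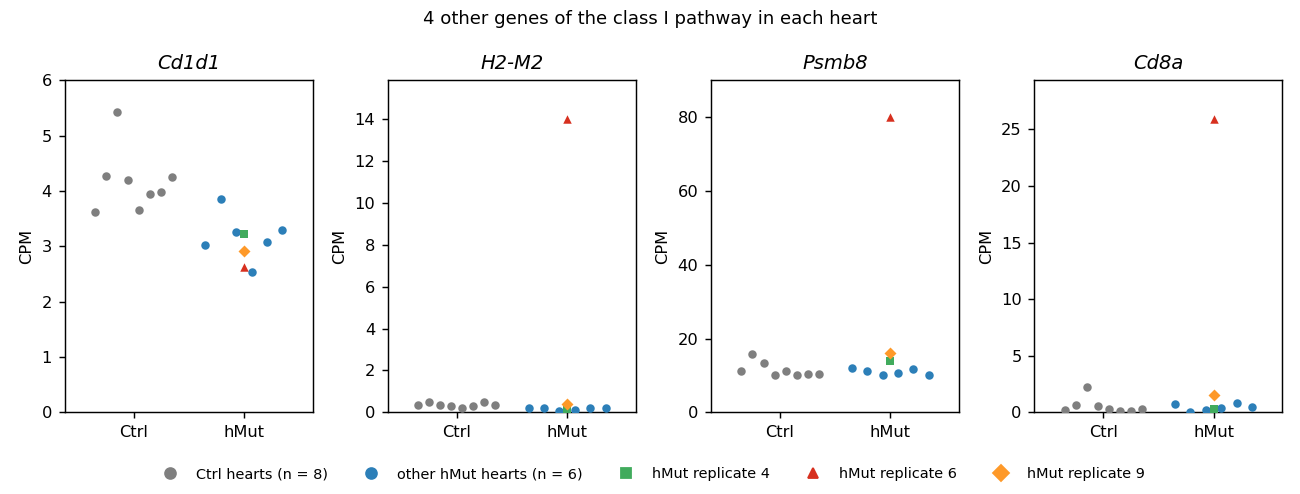
CPM of *Cd1d1*, *H2-M2*, *Psmb8* and *Cd8a* in each heart, Ctrl in grey and hMut in colour, each axis starting at 0. *Cd1d1* is lower in hMut hearts as a group, whereas *H2-M2*, *Psmb8* and *Cd8a* are high in replicate 6, at 14, 79.9 and 25.9 CPM.

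Outside the B cell and plasma cell lists, marker sums of immune cells were above the Ctrl range in hMut replicate 6. Some were also above it in hMut replicate 9. Of all tested genes, 31.1% were above every Ctrl heart in hMut replicate 6 and 27.9% in hMut replicate 9. Immune cells carry much class I themselves. Their part in the class I values was not tested, and in bulk tissue fewer cells of a type and less RNA per cell cannot be told apart. In hMut replicate 6 all 7 T cell markers were above every Ctrl heart, with a sum of 81.1 CPM against 2.36 to 12.0 in Ctrl, as were all 10 macrophage markers (1372 against 273 to 406 CPM), all 6 pan-leukocyte markers (371 against 44.8 to 105 CPM) and 4 of 5 dendritic cell markers (54.4 against 4.39 to 8.95 CPM). The 6 NK cell markers, of which 2 were tested, summed to 15.6 CPM against 0.511 to 3.23, of which *Nkg7*, which T cells also express, gave 10.9 CPM. Of the 2 tested, *Nkg7* was above every Ctrl heart and *Gzma* was within the Ctrl range. Of those not tested, *Prf1* (97 counts, at most 14 in Ctrl) and *Klre1* (45 counts, at most 11 in Ctrl) were above every Ctrl heart. *Ncr1* and *Klrb1c*, also not tested, were within the Ctrl range. The endothelial sum in hMut replicate 6 was 818 CPM, within the 738 to 924 CPM of Ctrl, with 0 of 6 above every Ctrl heart. In hMut replicate 9 the endothelial sum was 1022 CPM with 4 of 6 above every Ctrl heart, and in hMut replicate 4 it was 1004 CPM. Over the hMut hearts other than replicates 6 and 9 it ran from 806 to 1091 CPM, and the hMut median was 926 CPM. A high endothelial sum was thus not particular to replicates 4 and 9. In hMut replicate 9 the macrophage sum was 718 CPM with all 10 above every Ctrl heart, the pan-leukocyte sum was 138 CPM with all 6, the dendritic cell sum was 13.5 CPM with 4 of 5, and the T cell sum of 8.41 CPM lay within the Ctrl range. In hMut replicate 4 the macrophage (368 CPM) and T cell sums (5.04 CPM) were within the Ctrl range. Over the hMut hearts other than replicates 6 and 9 the macrophage sums ran from 342 to 451 CPM, so the highest was also above Ctrl. Of 5 B cell markers, 0 were above every Ctrl heart in hMut replicates 6 and 9, where their sums were 5.71 and 5.70 CPM. The B cell sum was highest in Ctrl replicate 3, at 48.4 CPM against 1.19 in the lowest Ctrl heart, and the T cell, NK cell, pan-leukocyte and plasma cell sums of this heart were also the highest of Ctrl (12.0, 3.23, 105 and 88.1 CPM). Of the members, *H2-D1*, *H2-Q4* and *B2m* were highest and *Tap2* was lowest in it among the Ctrl hearts. Of the remaining lists, plasma cell and erythroid sums of hMut replicates 6 and 9 lay within the Ctrl range, the fibroblast sums were 1185 and 995 CPM against 702 to 788 in Ctrl, and the mural sums were 740 and 1088 CPM against 788 to 1056. In the other hMut hearts the fibroblast sums were 696 to 838 CPM and the mural sums 940 to 1150 CPM. Most of the plasma cell sums of hMut replicates 6 and 9 was *Xbp1* (65.2 and 71.3 CPM, against 56.4 to 66.7 in Ctrl). In hMut replicate 9 *Mzb1*, at 0.316 CPM, was below the lowest Ctrl heart (0.372 CPM). *Kdr* and *Pdgfrb* were the marker genes that passed, both higher in hMut, where 4.62% of all tested genes passed in either direction.

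Stretches upstream of the genes are shown because the folds in hMut replicate 6 differed between genes. They are the 250 bases before the start of the canonical GENCODE M39 transcript in GRCm39, 5′ to 3′ on the strand of the gene, for a classical heavy chain, the gene with the largest group difference, the heavy chain with the smallest fold in hMut replicate 6, and the gene with the largest fold there. Capitals mark matches, on either strand, to 4 sets of letters: GAANNGAAA (a paired core of interferon regulatory factor sites), GGGATTCCC (a kappaB core), TGACG (the core of cAMP response elements) and ATTGG (the Y box).
H2-K1: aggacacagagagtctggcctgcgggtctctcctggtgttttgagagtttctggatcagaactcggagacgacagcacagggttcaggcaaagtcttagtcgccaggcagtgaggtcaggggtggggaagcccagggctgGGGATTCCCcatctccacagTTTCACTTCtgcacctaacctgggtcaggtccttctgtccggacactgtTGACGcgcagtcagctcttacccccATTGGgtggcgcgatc
H2-Q6: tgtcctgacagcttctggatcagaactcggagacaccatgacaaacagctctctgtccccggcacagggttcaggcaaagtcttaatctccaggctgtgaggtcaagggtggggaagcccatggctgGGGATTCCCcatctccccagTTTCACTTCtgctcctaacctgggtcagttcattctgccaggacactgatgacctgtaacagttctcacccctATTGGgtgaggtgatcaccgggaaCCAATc
H2-M3: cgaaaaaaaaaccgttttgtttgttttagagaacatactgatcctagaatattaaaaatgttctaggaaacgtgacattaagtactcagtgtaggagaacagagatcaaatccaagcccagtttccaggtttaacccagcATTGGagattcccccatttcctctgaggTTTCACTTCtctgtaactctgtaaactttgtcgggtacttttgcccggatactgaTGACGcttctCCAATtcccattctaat
Tap1: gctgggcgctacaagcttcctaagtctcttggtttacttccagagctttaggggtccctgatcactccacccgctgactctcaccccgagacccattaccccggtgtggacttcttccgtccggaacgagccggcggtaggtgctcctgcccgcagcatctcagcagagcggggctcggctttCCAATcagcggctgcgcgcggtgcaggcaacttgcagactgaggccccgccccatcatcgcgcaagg
These are *H2-K1* at chr17:34219322-34219571, minus strand, *H2-Q6* at chr17:35643527-35643776, plus strand, *H2-M3* at chr17:37580856-37581105, plus strand, *Tap1* at chr17:34406125-34406374, plus strand. *H2-K1* held all 4 in this window, with the kappaB core from 110 to 102 and the interferon regulatory factor letters from 90 to 82 bases before the start.

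GAANNGAAA was found upstream of 5 of the 10 genes (*H2-K1*, *H2-Q4*, *H2-Q6*, *H2-Q7* and *H2-M3*), and in 6.36% of the 13697 windows of the same length upstream of tested protein-coding genes. GGGATTCCC was found in 3 (*H2-K1*, *H2-Q6* and *H2-Q7*; 0.321% of windows), TGACG in 4 (*H2-K1*, *H2-Q4*, *H2-Q7* and *H2-M3*; 22.3% of windows) and ATTGG in 6 (the same 5 as for GAANNGAAA, and *Tap1*; 35.7% of windows). The Qa genes are copies of one another, so these are not independent matches. The matches and the folds were not in the same order: *H2-M3*, with 3.57-fold in hMut replicate 6, held GAANNGAAA, and *Tap1*, with 9.45-fold, did not. In the windows of *H2-D1*, *H2-T23*, *B2m* and *Tap2* none of the 4 was found, which says only that these letters are not within 250 bases of that annotated start. Which start the heart transcripts use was not examined: for *B2m* the count table places the gene start at 121978167 on chromosome 2, downstream of the start at 121977957 used for its window. For *Tap1* the count table places the gene start at 34406527 on chromosome 17, downstream of its window, which ends at 34406374. The annotated starts of *H2-D1* and *H2-T23* may likewise lie upstream of the start most used. All these windows can thus miss the promoter. The count of 5 of 10 and the contrast of *H2-M3* with *Tap1* depend on them.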

How the data were processed

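Heart RNA was measured by bulk RNA-seq in 8 Ctrl and 9 hMut libraries. According to the submitters' processing notes, the authors used fastp, HISAT2 (2.2.1) with GRCm39 and featureCounts (2.0.6), and deposited raw counts per gene, which were not normalized. All further values were computed from these deposited counts. Samples were grouped by the genotype label, and the labels do not state that each sample came from a different mouse, so p-values measure the spread between these samples. The main test was edgeR's quasi-likelihood F-test (4.0.16; R 4.3.3), run after TMM normalization and filterByExpr with a single term for genotype, with adjustment over the 16195 tested genes after Benjamini and Hochberg (threshold 0.05). The SE is the log2 fold change over the square root of F. Log2 CPM used a prior count of 2. Totals were 32915159 to 46486964 counts, and floors of 3 counts cover counting error only.

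The members and gene lists were chosen with earlier results of these data known. Named were all members, list genes past the threshold (otherwise the 3 with the smallest adjusted p) and the 5 genes most like the members over 17 hearts and over 16. 1 gene that this rule names is not reported here. Alternatives were DESeq2 (1.42.0), limma-voom (3.58.1) with quality weights, other scalings and filters, a term for sex (read from the counts), a replicate block, and hearts left out. On simulated counts for 16195 genes in the design of hMut against Ctrl, 45 of 67 genes changed 1.5-fold, 54 of 66 changed 2-fold and 58 of 60 changed 4-fold were called, with 13 of 15840 unchanged genes. Each simulated fold was the same in all hMut hearts, so these counts do not cover a difference carried by a single heart. Sequences were read from GRCm39 with GENCODE M39.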

Additional observations from a re-analysis of the deposited data

Results flagged for a closer look

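In groups of this size, a heart is singled out when the gap to its nearest neighbour takes up most of the range of its group (Dixon's criterion, applied to log2 CPM of the 10 genes in both groups, 20 tests, with chance giving about 1 in 20). In hMut replicate 6 this held for 9 of the 10 genes, all but *H2-Q6*: *H2-K1* at 1638 CPM, *H2-D1* at 1428, *B2m* at 1584, *H2-T23* at 228, *H2-Q4* at 170, *Tap1* at 132, *Tap2* at 70.6, *H2-M3* at 20.4 and *H2-Q7* at 13.2 CPM. Over all 16195 tested genes, 587 (3.62%) were set apart upward in this heart by the same criterion. The 10 genes were measured in the same libraries and moved together, so the 9 cases are not independent of each other. For *H2-Q6* the values of hMut replicates 9 and 4 lay between replicate 6 and the rest, and no gap was large enough. The remaining case was *H2-T23* in Ctrl replicate 2, at 39.8 CPM, where the other Ctrl hearts were at 30.3 to 34.5 CPM. Its gap over the range was 0.5265, barely past the limit of 0.526. Ctrl replicate 2 also had the highest *H2-K1*, *Tap1* and *Tap2* of the Ctrl hearts.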

How the results depend on the processing

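In every one of the 30 alternatives 0 of the 10 genes passed. Of 300 fold changes under these alternatives 286 kept their direction and 14 turned below 0: *Tap1* with DESeq2 (-0.0648), limma-voom (-0.0365), without hMut replicate 6 (-0.059, the lowest with 1 heart left out, where the highest was 0.965 without hMut replicate 5), without replicates 6 and 9 (-0.159) and without 4, 6 and 9 (-0.197); *Tap2* with limma-voom (-0.128), without hMut replicate 6 (-0.14, the lowest with 1 heart left out, the highest being 0.218) and in the same sets of hearts (-0.137 and -0.156); *H2-M3* without 6 and 9 (-0.0323) and without 4, 6 and 9 (-0.0332); and without 4, 6 and 9 also *H2-Q4* (-0.0315), *H2-T23* (-0.0367) and *B2m* (-0.0167). DESeq2 replaced the *Tap1* count of hMut replicate 6, and limma-voom gave that heart a weight of 0.166. With another heart left out all 10 stayed above 0.

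Over all genes, 749 were called with edgeR, 1524 with DESeq2, 1540 with its replacement of outliers switched off, 2081 with limma-voom, 463 with no filter on low counts, 431 without hMut replicates 6 and 9, 300 without 4, 6 and 9, and 395 to 1792 when 1 heart was left out (1792 without hMut replicate 2). The sets without replicates 4, 6 and 9 and without the replacement were chosen after seeing the data. The pathway lists held 1 called gene, *Cd1d1*. They held 2 with DESeq2, with or without the replacement (*Canx*, lower, added), 3 with limma-voom (*Canx* and *H2-M2*, both lower), 2 without hMut replicates 6 and 9 (*H2-M2*, lower), 0 without 4, 6 and 9, and 1 to 3 with 1 heart left out (3 without hMut replicate 2, with *Canx* lower and *Rela* higher). Of the 5 genes most like the members, 1 was shared with the 5 over 16 hearts and 1 with the 5 by Spearman's rho. The counts of members above every Ctrl heart in replicates 4, 6 and 9 were the same with median-of-ratios and upper-quartile scaling.

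Replicate numbers are shared by the groups, but same-numbered hearts deviated together in 1 of 8 pairs only (r from -0.23 to 0.34), and 1 Ctrl heart was closest to its own number, so they were not taken as pairs. With the replicate block, 195 genes and 0 members were called, and 0 genes of the pathway lists, *Cd1d1* included (adjusted p = 0.0605, edgeR). The low counts of *H2-Q6* and *H2-Q7*, 31 to 632, limit their precision, as do those of *H2-M2*, 2 to 20 outside hMut replicate 6.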
